A study of Mus musculus with 10 samples.

Results

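Interferon-stimulated genes and the genes of interferon signalling were followed in sorted mouse lung endothelium in which Tnfsf10, encoding the apoptosis-inducing ligand TRAIL, was flanked by loxP sites. The members were 41 genes named by symbol: receptors, STAT and IRF transcription factors, nucleic acid sensors and antiviral effectors. All 41 were found among the 55385 gene identifiers of the count table, and all 41 were among the 17997 genes with enough counts to be tested. Every mouse carried Tnfsf10 L/L, was 8 to 14 weeks old and received tamoxifen at 1 mg per day for 5 or 10 days, and the labels do not say which duration belongs to which library. Controls had the genotype Cdh5.Cre W/W (n = 5 libraries). The libraries labelled EC-TRAIL KO had Cdh5.Cre Tg/W (n = 5), a tamoxifen-inducible Cre recombinase under the promoter of the endothelial cadherin gene Cdh5. Every EC-TRAIL KO library carried the Cre transgene and no control did, so effects of the transgene and of the deletion cannot be told apart. The series' design text counts 4 transgenic animals but 5 such libraries are labelled and tabulated, and none was dropped. Whether each library stands for its own animal is not in the labels, and p-values therefore describe the spread from library to library.

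Type I interferons bind the receptor formed by Ifnar1 and Ifnar2, and interferon gamma binds the receptor formed by Ifngr1 and Ifngr2. Kinases of the JAK family attached to these receptors phosphorylate STAT proteins. Stat2 and Irf9 are parts of the complex ISGF3, which binds the interferon-stimulated response element (ISRE) in promoters, whereas other STAT complexes bind the gamma-activated sequence (GAS). Endothelial cells carry these receptors and switch on antiviral genes when exposed to interferon, and Tnfsf10 is itself known as an interferon-inducible gene in many cell types. The comparison asks whether this set of genes was at another level in lung endothelium labelled as lacking TRAIL.

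Some promoters of the members hold the letters that these factors are known to read, and a few stretches are printed because the results below turn on the genes behind them. RefSeq promoter sequences on GRCm38.p6 matched 32 of the 41 members. No entry was matched for Dhx58, Zbp1, Oas2, Mx1, Mx2, Rtp4, Usp18, Parp9 and Parp14. In the 250 bases before the transcription start, the ISRE letters GAAA, any 2 bases and GAAA again (TTTC, any 2 bases and TTTC when read from the other strand) were found in 10 of 32 members (31.2%), against 936 of 27025 genes (3.46%). The GAS letters TTC, any 3 bases and GAA, which read the same on both strands, were found in 8 of 32 members (25%), against 2197 of 27025 genes (8.13%). A match is a description of the letters and not evidence of binding. Of the 4 receptors 0 held the ISRE letters, whereas 3 of 4 IFIT genes and 2 of 4 OAS genes with a sequence did. Each stretch below holds 100 bases upstream of the start, 5′ to 3′ on the gene's own strand, with the matched letters in capitals.

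Ifit1 (chr19:34640759-34640858, plus strand): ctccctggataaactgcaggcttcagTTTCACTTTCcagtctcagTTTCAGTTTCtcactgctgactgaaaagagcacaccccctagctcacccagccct
Ifit3 (chr19:34583362-34583461, plus strand): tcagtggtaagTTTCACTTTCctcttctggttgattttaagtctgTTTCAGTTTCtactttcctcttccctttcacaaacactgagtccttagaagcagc
Oas1a (chr5:120907526-120907625, minus strand): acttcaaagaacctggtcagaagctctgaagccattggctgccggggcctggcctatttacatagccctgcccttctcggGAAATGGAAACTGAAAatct
Oas3 (chr5:120777680-120777779, minus strand): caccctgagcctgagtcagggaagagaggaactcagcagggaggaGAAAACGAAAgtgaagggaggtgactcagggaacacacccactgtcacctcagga
Rsad2 (chr12:26456518-26456617, minus strand): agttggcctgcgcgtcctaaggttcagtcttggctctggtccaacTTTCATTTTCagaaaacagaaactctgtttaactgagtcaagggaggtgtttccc
Isg15 (chr4:156200830-156200929, minus strand): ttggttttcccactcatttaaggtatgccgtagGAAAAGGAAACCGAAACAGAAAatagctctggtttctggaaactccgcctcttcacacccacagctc
Irf1 (chr11:53769879-53769978, plus strand): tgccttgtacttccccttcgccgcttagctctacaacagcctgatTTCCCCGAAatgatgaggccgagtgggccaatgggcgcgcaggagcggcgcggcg

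The first 6 stretches show ISRE letters and that of Irf1 shows a GAS match, which starts 90 bases before the transcription start. Ifit1 and Ifit3 hold 2 separate ISRE matches each, Oas1a holds 2 that overlap and begin 14 and 20 bases before the start, and Isg15 holds 3 that overlap. The matched stretch of Ifit3b (chr19:34607758-34607857) differed from that of Ifit3 at 0 of 100 bases, so these neighbouring genes share this stretch letter for letter.

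Control libraries held 34435835 to 56897822 expected counts each, and EC-TRAIL KO libraries 29806083 to 34702571. Tnfsf10 (GRCm38 chromosome 3, 27317028 to 27342427, plus strand) had 334 ± 35.7 CPM (read counts scaled by library size) in controls and 179 ± 89.7 in EC-TRAIL KO libraries (SD, n = 5 each), which gave a log2 ratio of -0.90 (edgeR quasi-likelihood adjusted p = 0.425). In 4 of 5 EC-TRAIL KO libraries it lay below every control. The library labelled EC-TRAIL KO 2 had 318 CPM, within the control range of 298 to 374, and without it the log2 fold change was -1.21 (edgeR adjusted p = 0.0345). That library was singled out by its Tnfsf10 value, so a larger difference without it follows from the choice. With any other single library left out, the edgeR adjusted p of Tnfsf10 ran from 0.328 to 0.801. Summed markers of endothelium (led by Cdh5 and Pecam1) ran from 10606 to 12243 CPM in controls and from 10528 to 12348 in EC-TRAIL KO libraries. The libraries also held alveolar epithelial transcripts (summed, 7651 to 11644 and 6411 to 9260 CPM; Sftpc and Sftpb highest). Transcripts listed as macrophage and monocyte markers summed to 1291 to 1940 and 1115 to 1608 CPM (Lyz2 and Csf1r highest). Lyz2 alone averaged 1336 CPM, against 35.5 for Cd68, 3.28 for Ptprc and 0.873 for Tyrobp, so that sum mostly follows a single gene. Lyz2 was highest in control 2 (1827 CPM) and lowest in EC-TRAIL KO 2 (1001 CPM), as was Sftpc (6171 and 3243 CPM). Which cells held Lyz2 was not tested. Mrc1, a mannose receptor named after its values were seen, had 14.9 ± 2.40 CPM in controls and 22.8 ± 8.34 in EC-TRAIL KO libraries (SD, n = 5 each; edgeR unadjusted p = 0.0112, adjusted p = 0.550), with its maximum of 36.9 CPM in the library labelled EC-TRAIL KO 2. Of the 10 macrophage and monocyte markers tested, 4 had a log2 fold change above 0 and 6 below, with a median of -0.05. Fibroblast markers (564 to 778 and 484 to 796 CPM; Pdgfra and Col3a1 highest) and pericyte markers (306 to 415 and 239 to 394 CPM; Pdgfrb and Notch3 highest) overlapped between the groups as well. The log2 fold change was above 0 for 6 of 9 endothelial and 0 of 8 alveolar epithelial markers (medians 0.06 and -0.16). It was above 0 for 1 of 8 fibroblast and 2 of 6 pericyte markers (medians -0.14 and -0.05). Of all genes 47.4% were above 0, and none of these markers passed the test. Lymphocyte, plasmacytoid dendritic cell and neutrophil markers summed to at most 6.89 CPM in any library. In bulk RNA, fewer cells of a type and less RNA per cell cannot be told apart. Markers of dividing cells, led by Mki67 and Top2a, ran from 44.0 to 96.5 CPM in controls and from 150.1 to 803 CPM in EC-TRAIL KO libraries, with the maximum in the library labelled EC-TRAIL KO 2, and 4 of their 5 genes passed the test as higher.

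None of the 41 members passed the test (edgeR quasi-likelihood, adjusted p from 0.483 to 0.998). Over all 17997 genes, 79 (0.439%) passed as higher and 0 as lower. DESeq2 passed 208 genes as higher and 4 as lower, and 0 members passed with DESeq2, limma-voom or any other of the 19 alternatives. At an unadjusted p under 0.05 edgeR counted 6 members as higher (14.6%) and 0 as lower, against 3.81% and 1.32% of all genes (5.13% in either direction). DESeq2 counted the same 6 and limma-voom 5 of them, without Irf5. These were the RNA-degradation activators Oas1a, Oas2 and Oas3, the antiviral enzyme Rsad2, the nucleic acid sensor Zbp1 and the transcription factor Irf5. The log2 fold change was above 0 for 30 members (73.2%), against 47.4% of all genes. The median over the members was 0.08, against -0.0085 over all genes, and the members ran from -0.14 for Irf1 to 1.10 for Irf5. Genes of a pathway can vary together from library to library, so the signs are not independent of each other, and no test was made of the median. No member had all 5 EC-TRAIL KO libraries above all 5 controls or below them, which 1.38% and 0.261% of all genes did.

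The width of the intervals shows how large a difference these libraries leave room for. For 33 members (80.5%) the 95% interval of the fold change lay within 1.5-fold either way, against 64.9% of all genes. For 39 members (95.1%) it lay within 2-fold, against 87.6% of all genes, and the exceptions were Irf5 and Oas3. The median coefficient of variation over members was 13.2% in controls and 15.4% in EC-TRAIL KO libraries, against 13.9% and 15.8% over all genes tested. The members' median level was 39.0 CPM, against 11.9 over all genes tested, and the shares of narrow intervals were not matched for level.

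**Figure D1:**
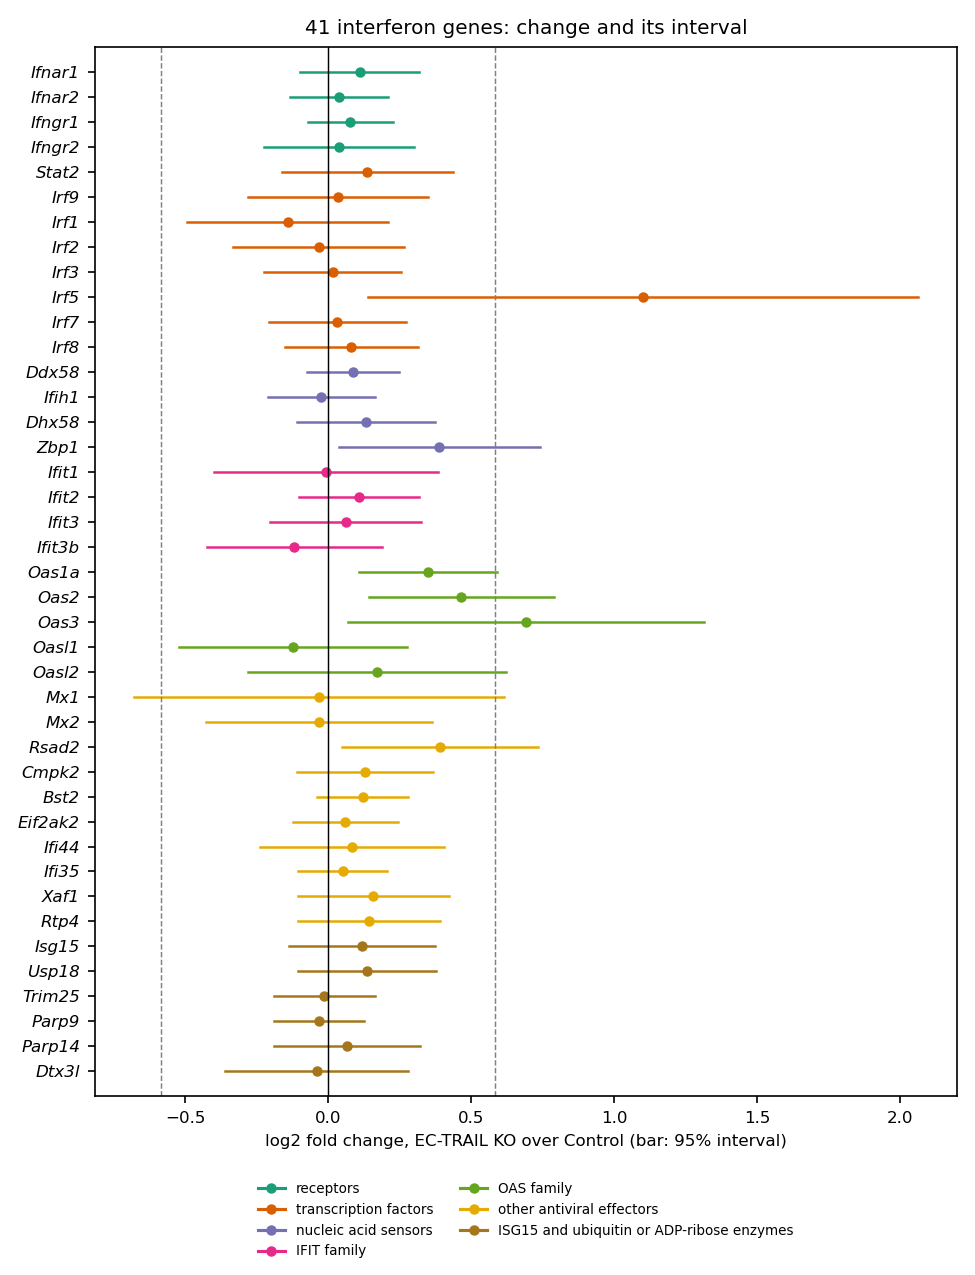
Log2 fold change of each of the 41 members (EC-TRAIL KO over control) with its 95% interval from edgeR, ordered by role; the vertical line marks 0. Most intervals cross 0 and lie within 1.5-fold, and the widest belong to the low genes Irf5, Oas3 and Mx1.

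Before the comparison, the levels themselves show which parts of the pathway these sorted libraries held. The libraries also held transcripts of other cell types, with Sftpc at a mean of 4221 CPM and Cdh5 at 3930. A level therefore cannot be assigned to endothelium alone. Expressed per kilobase of exon, as CPM per kb over the 10 libraries, Irf1 was the most abundant member at 82.6 ± 16.7 (SD, n = 10). Irf1 is a transcription factor best known as an early target of interferon gamma. The restriction factor Bst2 (tetherin) followed at 80.8 ± 6.80 CPM per kb, less than the SD below Irf1. The length used was that of all annotated exons of a gene joined, so the order depends on that choice. For Irf1 this length was 3976 bases, against 2137 in its longest coding transcript, and for Bst2 903 against 792. The interferon gamma receptor chain Ifngr1 stood at 46.3 ± 3.13 CPM per kb, and the ubiquitin ligase Trim25 at 29.6 ± 2.47. Ifi35 at 29.2, Ifnar2 at 28.5 and Ifit3 at 28.5 CPM per kb lay within the spread of Trim25. At the low end were the myeloid-associated factor Irf8 at 1.70 CPM per kb, the OAS-like gene Oasl1 at 1.68, Irf5 at 0.439, the dynamin-like GTPase Mx1 at 0.211 and Oas3 at 0.119.

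**Figure D2:**
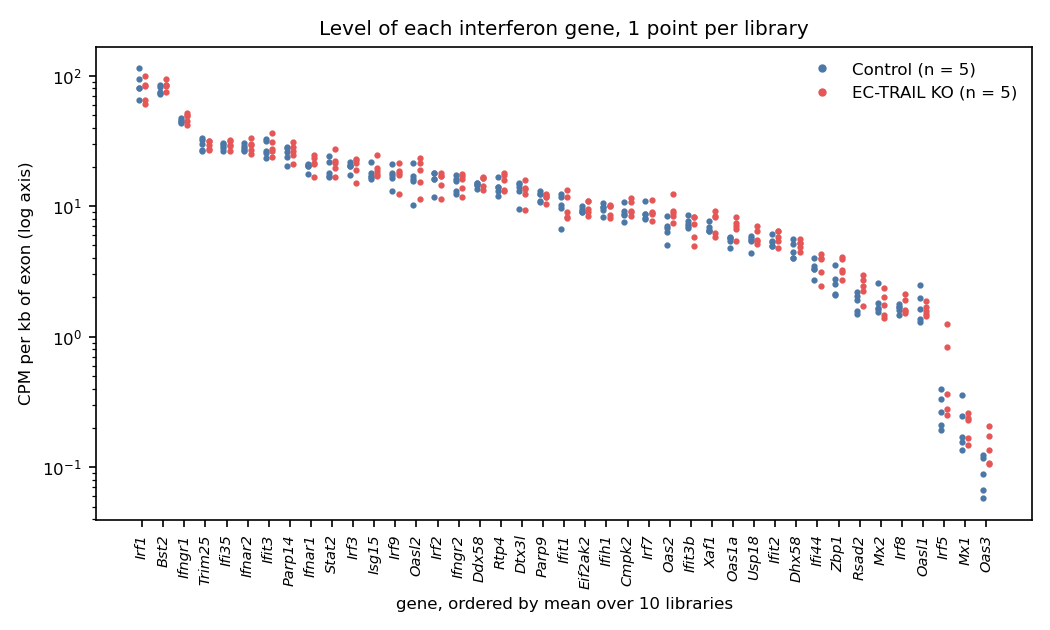
Level of each member in CPM per kilobase of exon (log axis), with points for single libraries of both groups. Irf1 and Bst2 sit at the top near 80, and Oas3 and Mx1 at the bottom under 1, with control and EC-TRAIL KO points overlapping for every member.

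The receptors were close to level between the groups, and the 4 of them had a median log2 fold change of 0.06. Ifnar1 (chromosome 16, 91485238 to 91507441, plus strand), the signalling chain of the type I receptor, had 121, 124, 119.6, 123 and 105 CPM in controls 1 to 5 and 126, 146, 128, 139 and 100.1 CPM in EC-TRAIL KO libraries 1 to 5. In 4 of 5 EC-TRAIL KO libraries it lay above every control, and in EC-TRAIL KO 5 below every control. Its log2 fold change was 0.11 (95% interval -0.10 to 0.32). Ifngr1 (chromosome 10, 19591949 to 19610229, plus strand), the ligand-binding chain for interferon gamma, had 124, 130.0, 125, 135 and 128 CPM in controls and 143, 146, 129, 139.8 and 119 CPM in EC-TRAIL KO libraries. It was the steadiest member among controls, with a coefficient of variation of 3.29%, and its log2 fold change was 0.08 (95% interval -0.07 to 0.23). The partner chains Ifnar2 and Ifngr2 each had a log2 fold change of 0.04. All 4 receptor intervals lay within 1.5-fold.

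Stat2 and Irf9 showed no difference past the test either. Stat2 (chromosome 10, 128270559 to 128292849, plus strand) had 143, 101, 98.8, 106 and 129 CPM in controls and 162, 127, 117, 98.6 and 132 CPM in EC-TRAIL KO libraries. The highest library of each group was the one numbered 1, the groups overlapped, and the log2 fold change was 0.14 (SE 0.137). Irf9, the DNA-binding partner of Stat2, had 92.4 ± 15.7 CPM in controls and 94.6 ± 17.7 in EC-TRAIL KO libraries (SD, n = 5 each), which gave a log2 fold change of 0.03.

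Among the IRF transcription factors, Irf1 (chromosome 11, 53770014 to 53778374, plus strand) had the lowest log2 fold change of all members. It had 451, 320.3, 374, 257 and 319 CPM in controls and 392, 257, 333, 239.5 and 339 CPM in EC-TRAIL KO libraries. The groups overlapped over most of their range, and the log2 fold change of -0.14 (95% interval -0.49 to 0.21) was smaller than its SE of 0.162. Irf7, the factor that amplifies type I interferon production (chromosome 7, 141262706 to 141266481, minus strand), had 41.2, 30.4, 33.1, 30.1 and 32.7 CPM in controls and 42.0, 29.0, 33.3, 33.03 and 33.9 CPM in EC-TRAIL KO libraries. In both groups the library numbered 1 stood above the others, and the log2 fold change was 0.03. Irf2, a counterpart of Irf1 at shared sites, was at -0.03, Irf3, which acts downstream of cytosolic sensors, at 0.02, and Irf8 at 0.08 on the log2 scale.

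Irf5, a factor known from Toll-like receptor signalling in myeloid cells (ENSMUSG00000029771, chromosome 6, 29526625 to 29541871, plus strand), had the largest log2 fold change of the members at a very low level. Controls had 0.609, 0.765, 0.556, 0.976 and 1.15 CPM, and EC-TRAIL KO libraries had 0.729, 3.65, 0.807, 2.43 and 1.06 CPM. Only the libraries labelled EC-TRAIL KO 2 and 4 lay above every control. The log2 fold change was 1.10 (95% interval 0.14 to 2.06; edgeR unadjusted p = 0.0282, adjusted p = 0.841), and it was 0.64 without the library labelled EC-TRAIL KO 2. Summed markers of dividing cells were also highest in these 2 libraries, at 803 and 424 CPM. Within the EC-TRAIL KO group, so were Oas3 (1.46 and 1.23 CPM) and Rsad2 (12.9 and 11.8 CPM), but not Oas1a, Oas2 or Zbp1. The part of dividing cells in these results was not tested. Of the exon bases of Irf5, 14.1% are overlapped by Tnpo3 on the opposite strand, and whether counting used strand was not stated in the labels.

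The cytosolic sensors detect viral nucleic acid and lead to interferon production. Ddx58 (RIG-I) had 102 ± 4.57 CPM in controls and 109 ± 10.6 in EC-TRAIL KO libraries, Ifih1 (MDA5) had 78.1 ± 6.79 and 76.8 ± 7.92, and their regulator Dhx58 had 15.2 ± 2.34 and 16.6 ± 1.48 (SD, n = 5 each). Their log2 fold changes were 0.09, -0.02 and 0.13. Zbp1, a sensor of left-handed nucleic acid known for triggering necroptosis (ENSMUSG00000027514, chromosome 2, 173206612 to 173218923, minus strand), had 7.56, 7.41, 12.6, 8.91 and 9.70 CPM in controls and 13.8, 11.5, 10.98, 14.5 and 9.59 CPM in EC-TRAIL KO libraries. All 5 EC-TRAIL KO values exceeded the control mean of 9.24 CPM, but only 2 exceeded the highest control. Its log2 fold change was 0.39 (95% interval 0.04 to 0.74; edgeR unadjusted p = 0.0334, adjusted p = 0.882).

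The IFIT proteins bind viral RNA and are among the most strongly inducible interferon-stimulated genes. Ifit1 (chromosome 19, 34640871 to 34650009, plus strand) had 32.9, 25.6, 27.1, 17.7 and 31.4 CPM in controls and 35.4, 21.4, 31.3, 21.8 and 24.1 CPM in EC-TRAIL KO libraries. The means of 26.9 and 26.8 CPM were nearly equal, with a log2 fold change of -0.0063 (95% interval -0.40 to 0.39). Ifit2 had a log2 fold change of 0.11. Ifit3 (34583531 to 34588731 on the same chromosome) had 57.1, 46.0, 40.8, 54.6 and 44.5 CPM in controls and 54.0, 46.4, 48.2, 63.0 and 41.9 CPM in EC-TRAIL KO libraries, a log2 fold change of 0.06. Its near copy Ifit3b, at 15.02 ± 1.39 and 13.8 ± 3.01 CPM, had -0.12. Of all 50-base words in the Ifit3 transcript, 51.2% also occur in other genes, most of them in Ifit3b, so the division of reads between this pair rests on the authors' estimation and is uncertain. All 4 IFIT intervals lay within 1.5-fold.

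The OAS family had a median log2 fold change of 0.35 over its 5 genes and held 3 of the 6 members with an unadjusted p under 0.05. OAS enzymes sense double-stranded RNA and make the messenger that activates RNase L. Oas1a (ENSMUSG00000052776, chromosome 5, 120896256 to 120907521, minus strand) had 10.9, 9.04, 10.8, 10.2 and 10.7 CPM in controls and 15.5, 13.9, 13.3, 12.7 and 10.2 CPM in EC-TRAIL KO libraries. In 4 of 5 EC-TRAIL KO libraries it lay above every control, and the exception was replicate 5. Its log2 fold change was 0.35 (SE 0.111, 95% interval 0.11 to 0.59), a ratio of 1.27, with an edgeR unadjusted p of 0.00845 and an adjusted p of 0.483. Of the 50-base words in its transcript, 57.6% also occur in other genes, with Oas1g sharing most.

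Oas2 (ENSMUSG00000032690, chromosome 5, 120730333 to 120749853, minus strand) shared 0% of its 50-base words with other genes. It had 31.2, 22.6, 30.5, 28.2 and 37.1 CPM in controls and 55.5, 41.01, 39.3, 37.7 and 32.9 CPM in EC-TRAIL KO libraries. Here too replicate 5 was the only EC-TRAIL KO library inside the control range. The log2 fold change was 0.47 (SE 0.149, 95% interval 0.14 to 0.79), a ratio of 1.38, with an edgeR unadjusted p of 0.00859 and an adjusted p of 0.488. Oas1a and Oas2 were the members that kept an unadjusted p under 0.05 in all 19 alternatives, which share most libraries and are not independent of each other. The lowest adjusted p of any member in any of them was 0.106, for Oas1a without EC-TRAIL KO replicate 5. That library held the lowest Oas1a value of its group, so a smaller p without it follows from that value. Of the other 4 members, Rsad2 kept an unadjusted p under 0.05 in 14 of 19 alternatives, Zbp1 in 13 of 19, Irf5 in 11 of 19 and Oas3 in 11 of the 18 that tested it. Without the library labelled EC-TRAIL KO 2, whose Tnfsf10 was at a control level, the log2 fold changes were 0.33 for Oas1a, 0.47 for Oas2, 0.54 for Oas3, 0.31 for Rsad2 and 0.41 for Zbp1.

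Oas3 (ENSMUSG00000032661, chromosome 5, 120753098 to 120777661, minus strand), the longest OAS enzyme, had the lowest level per kilobase of all members. It had 0.875, 0.408, 0.470, 0.629 and 0.828 CPM in controls and 0.963, 1.46, 0.749, 1.23 and 0.763 CPM in EC-TRAIL KO libraries. The groups overlapped, with 3 of 5 EC-TRAIL KO libraries above the highest control, and the log2 fold change was 0.69 (SE 0.286; edgeR unadjusted p = 0.0323, adjusted p = 0.868). Oas1a, Oas2 and Oas3 lie in the same cluster on chromosome 5, and further genes of that cluster, picked once the values were known, stood on the log2 scale at 0.07 (Oas1b), 0.14 (Oas1c) and 0.57 (Oas1g), none past the test. The OAS-like genes lie elsewhere on that chromosome. Oasl2 (114896936 to 114912234, plus strand) had 137, 102, 99.4, 64.5 and 109 CPM in controls and 148, 136, 122, 72.4 and 98.0 CPM in EC-TRAIL KO libraries, a log2 fold change of 0.17 (95% interval -0.28 to 0.62). Oasl1 was at -0.12 on the log2 scale.

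**Figure D3:**
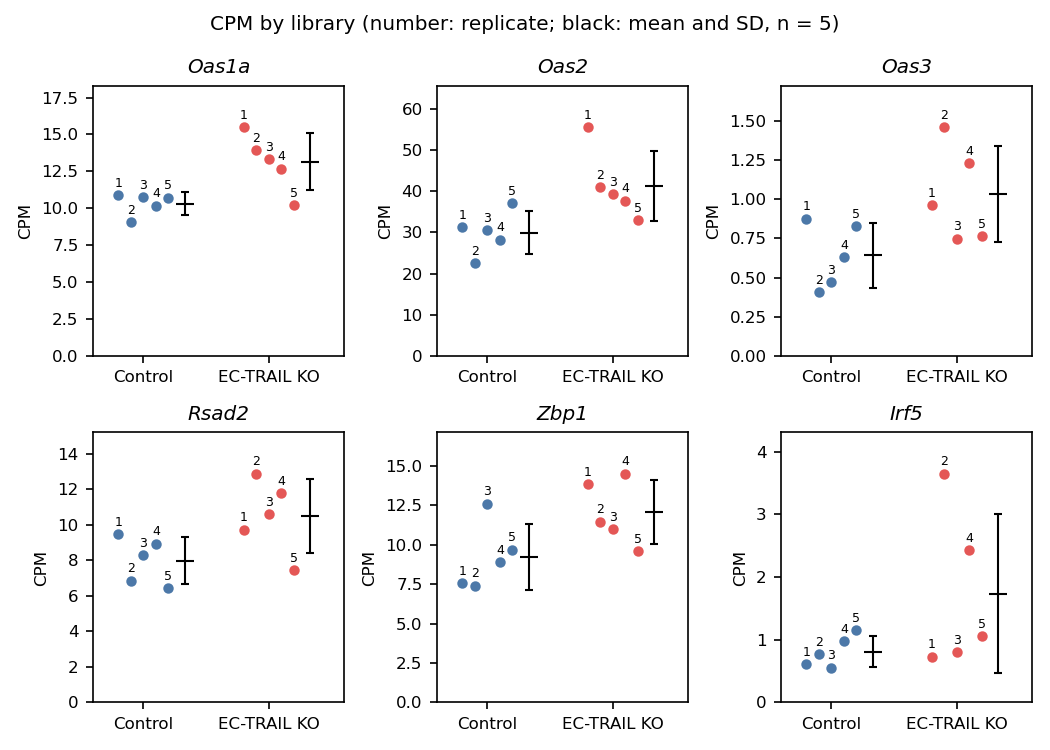
CPM in each library (points numbered by replicate) for the 6 members with an unadjusted p under 0.05, controls on the left and EC-TRAIL KO on the right of each panel, with bars at the mean and the SD. In every panel the groups overlap, and for Oas1a, Oas2 and Rsad2 4 of 5 EC-TRAIL KO points lie above the highest control.

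Among the other antiviral effectors, Rsad2 (viperin, ENSMUSG00000020641, chromosome 12, 26442746 to 26456452, minus strand) makes a nucleotide analogue that ends viral RNA synthesis. It had 9.46, 6.85, 8.27, 8.93 and 6.42 CPM in controls and 9.71, 12.9, 10.6, 11.8 and 7.43 CPM in EC-TRAIL KO libraries. Replicate 5 was again the lone EC-TRAIL KO library inside the control range, and the log2 fold change was 0.39 (SE 0.157; edgeR unadjusted p = 0.0281, adjusted p = 0.841). Cmpk2, its neighbour on chromosome 12 that supplies nucleotide substrates, had 37.2 ± 4.86 and 40.7 ± 5.49 CPM, a log2 fold change of 0.13.

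Bst2 (chromosome 8, 71534255 to 71537456, minus strand), which tethers budding virions, had 68.0, 66.3, 73.8, 76.5 and 65.1 CPM in controls and 76.2, 77.2, 75.1, 84.4 and 67.3 CPM in EC-TRAIL KO libraries. The groups overlapped and the log2 fold change was 0.12 (95% interval -0.04 to 0.28). The Mx GTPases, which block incoming viruses, both had a log2 fold change of -0.03, with Mx1 at only 0.807 ± 0.343 and 0.792 ± 0.183 CPM. The log2 fold changes of the remaining effectors were 0.06 for the kinase Eif2ak2 (PKR), 0.08 for Ifi44, 0.05 for Ifi35, 0.16 for the apoptosis factor Xaf1 and 0.14 for Rtp4.

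The ISG15 group holds a ubiquitin-like modifier and enzymes of ubiquitin and ADP-ribose transfer. Isg15 itself (chromosome 4, 156199424 to 156200818, minus strand) had 16.5, 12.7, 13.5, 12.3 and 13.0 CPM in controls and 18.6, 13.3, 14.8, 13.0 and 14.1 CPM in EC-TRAIL KO libraries. The library numbered 1 was highest and that numbered 4 lowest in each group, and the log2 fold change was 0.12 (95% interval -0.14 to 0.37). Usp18, which removes Isg15 from proteins and dampens the type I receptor, had 15.1 ± 1.602 and 16.5 ± 2.33 CPM, a log2 fold change of 0.14. Trim25 was at -0.01, the ADP-ribosyltransferases Parp9 and Parp14 at -0.03 and 0.07, and Dtx3l, the ubiquitin ligase that pairs with Parp9, at -0.04 on the log2 scale. All 6 intervals of this group lay within 1.5-fold.

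Libraries within a group differed in the members as a set. The mean log2 CPM of the 41 members was 5.10, 4.83, 4.91, 4.83 and 4.94 in controls 1 to 5 and 5.17, 5.10, 5.04, 4.97 and 4.87 in EC-TRAIL KO libraries 1 to 5. The groups overlapped, with means of 4.92 ± 0.110 and 5.03 ± 0.118 (SD, n = 5 each). Control 1 was the highest control in 23 members (56.1%), against 20.1% of all genes tested, and EC-TRAIL KO 1 was the highest of its group in 20 (48.8%), against 18.1%. Control 4 was the lowest control in 18 members (43.9% against 24.9%), and EC-TRAIL KO 5 the lowest of its group in 19 (46.3% against 20.3%).

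In 16 members (39.0%) the library numbered 1 was highest in both groups at once, against 6.59% of all genes. They included Stat2, Irf1, Irf7, Irf9, Ifit1, Isg15, Oas1a, Oasl2, Mx2 and Parp14. In 10 members (24.4%) the library numbered 4 was lowest in both groups, against 14.5% of all genes, among them Irf1, Irf9, Isg15, Oasl2 and Dtx3l. Same-numbered libraries also deviated together to some degree across all genes, with correlations from 0.0679 to 0.433. Single libraries moved the summary: the members' median log2 fold change was 0.03 without EC-TRAIL KO replicate 1, 0.12 without EC-TRAIL KO replicate 5 and 0.07 without the library labelled EC-TRAIL KO 2.

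**Figure D4:**
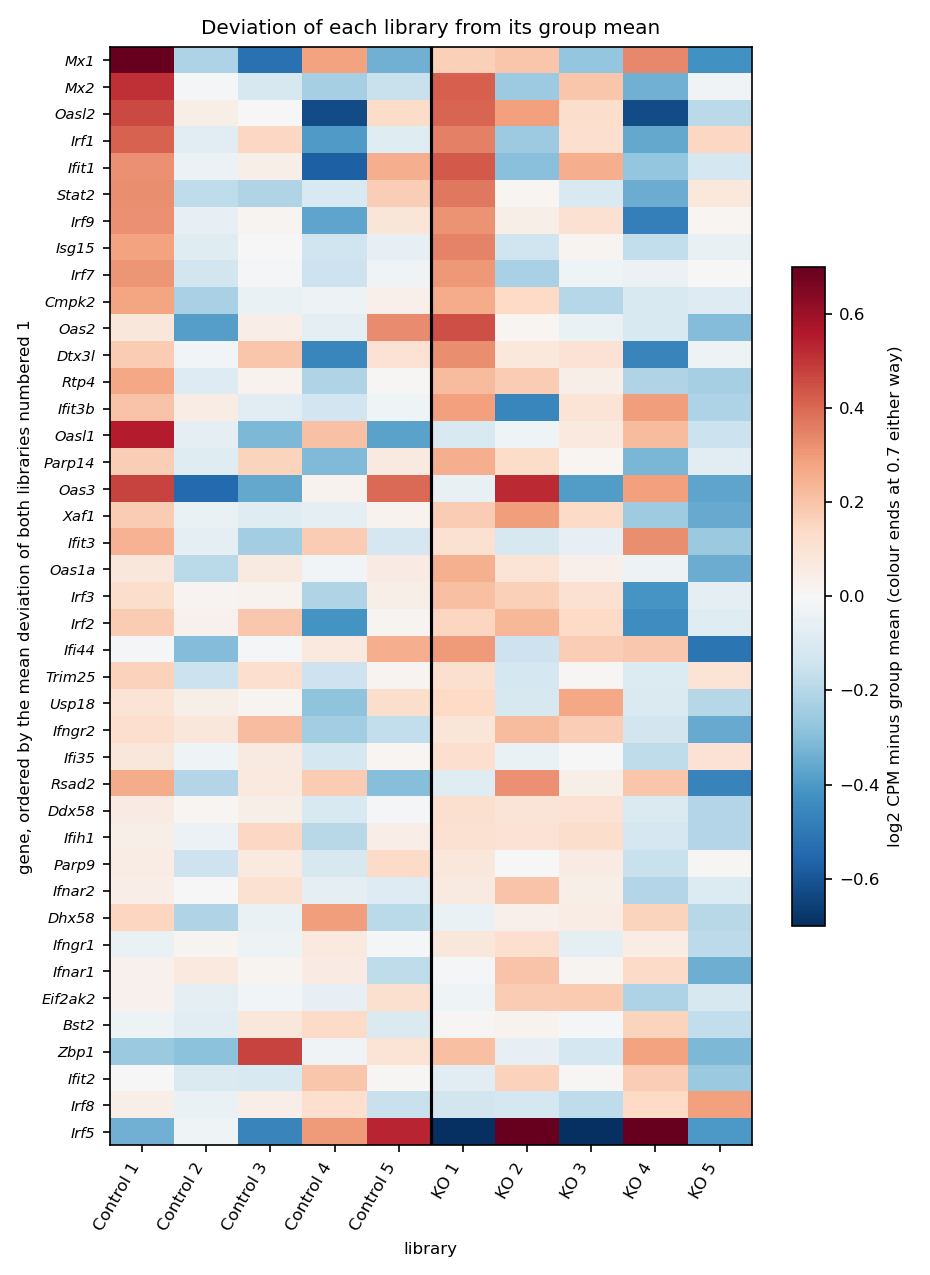
Deviation of each member's log2 CPM from its own group mean in each library. Members are ordered by the mean deviation of both libraries numbered 1, so the gradient down those columns follows from the ordering. The libraries numbered 1 lie mostly above their group mean in both groups, and EC-TRAIL KO 5 and controls 2 and 4 mostly below.

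The other genes of the pathway were 85, of which 62 had enough counts to be tested and 0 passed. At an unadjusted p under 0.05 there were 4 higher (6.45%, against 3.81% of all genes) and 1 lower (against 1.32% of all genes), and the median log2 fold change was 0.03. None of the 21 interferon genes had enough counts to be tested: 10 of them, Ifnb1 among these, had 0 counts in all 10 libraries, and the highest count of any was 16. A count of 0 allows up to 3 counts, which is 0.051 to 0.0996 CPM at these depths, so a 0 in these libraries leaves room for levels up to that. The lambda receptor Ifnlr1 had a log2 fold change of -0.20 and the kinase Tyk2 of 0.07, neither past the test.

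Among adaptors of nucleic acid sensing, the DNA sensor Cgas had 6.07, 5.37, 6.90, 4.58 and 6.21 CPM in controls and 6.89, 12.6, 8.38, 8.11 and 5.68 CPM in EC-TRAIL KO libraries. The highest value was in the library labelled EC-TRAIL KO 2, and the log2 fold change was 0.52 (edgeR unadjusted p = 0.0213, adjusted p = 0.764), or 0.32 without that library. Traf3, an adaptor that leads to Irf3 activation, was at 0.22 (edgeR unadjusted p = 0.0385, adjusted p = 0.919). The negative regulators with the smallest p, the phosphatase Ptpn1 and the RNA editor Adar, were both at 0.11, and the lymphoid factor Irf4 was at 0.03. Ifi27l2a, an interferon-inducible gene named after its values were seen, had 4.05 ± 1.53 CPM in controls and 6.18 ± 1.96 in EC-TRAIL KO libraries (SD, n = 5 each), a log2 value of 0.61 (edgeR unadjusted p = 0.0448, adjusted p = 0.957). The membrane-fusion inhibitor Ifitm1 was the gene counted as lower, with a log2 fold change of -0.32 (edgeR unadjusted p = 0.0446, adjusted p = 0.957).

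Slfn9, of the Schlafen family of interferon-inducible genes, came nearest to the threshold (chromosome 11, 82978390 to 82991830, minus strand). It had 9.17, 10.9, 6.09, 10.9 and 6.33 CPM in controls and 14.2, 50.9, 22.6, 32.1 and 15.3 CPM in EC-TRAIL KO libraries. All 5 EC-TRAIL KO libraries lay above all 5 controls, which 1.38% of all genes did, with the highest value again in the library labelled EC-TRAIL KO 2. The log2 fold change was 1.63 (SE 0.333), a ratio of 3.10, with an edgeR adjusted p of 0.0634, and it passed with no low-count filter (edgeR adjusted p = 0.0105), with DESeq2 (0.00397), with the replicate block (0.0115) and without EC-TRAIL KO replicate 1 (0.0211) or 5 (0.0385). Without the library labelled EC-TRAIL KO 2 the log2 fold change was 1.27 (edgeR adjusted p = 0.0702). Summed dividing-cell markers had 150.1, 803, 327, 424 and 234 CPM in EC-TRAIL KO libraries 1 to 5, the same order from lowest to highest, and their part in this result was not tested.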

How the data were processed

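RNA sequencing of sorted lung endothelial cells gave 10 libraries, 5 controls and 5 labelled EC-TRAIL KO, grouped by their titles. The authors deposited expected counts per gene without normalization. The submitters' processing notes list STAR 2.7.1a, RSEM 1.2.28 and GRCm38, and per the labels' protocols poly-adenylated RNA went into a stranded kit. Annotation release, read filters and the use of strand in counting were not given in the sources used here. RSEM shares out reads that fit several genes, which leaves paralogs and overlapping genes uncertain. Of the deposited values 81.2% were whole, 0 columns were left unmapped, and the depth ran from 29806083 to 56897822 expected counts, whose floors cover counting error only. Pairs of libraries differed by a chi-square per degree of freedom of at least 25.9, well past sampling noise.

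GENCODE for GRCm38 supplied symbols and positions: 55144 identifiers matched when versions were ignored, 54487 also by version, and 241 not at all. Rounded counts went into edgeR 4.0.16 (R 4.3.3; limma 3.58.1 for voom). After filterByExpr (minimum count 10) and TMM scaling, groups were compared by the quasi-likelihood F-test without covariates. Benjamini-Hochberg adjustment covered every tested gene, and adjusted p under 0.05 counted as passing. Standard errors (absolute log2 fold change over root F) gave the 95% intervals. CPM used TMM library sizes, and the mean log2 CPM used a prior count of 2.

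The test was checked on simulated data, with known changes set in genes at a mean CPM of at least 1. It recovered 58.2% of 1.5-fold, 88.1% of 2-fold and 100% of 4-fold changes, and 13 of 177 calls were false. A difference of 1.5-fold could therefore often be missed. Alternatives were RLE factors, library size only, no filter, a mean CPM of at least 1, DESeq2 1.42.0, limma-voom with and without quality weights, a replicate block, omission of each library, and, chosen after seeing the data, both libraries numbered 4 left out. Named genes were all 41 members, Tnfsf10, per role of the pathway list those that passed or else the 2 with the smallest p, and the 2 highest markers of each cell type. Oas1b, Oas1c, Oas1g, Tdrd7, Ifi27l2a and Mrc1 were added once values were known. Cgas carried the older symbol Mb21d1 in the list. Some genes that this rule names are not reported here. The members and lists were chosen with earlier results of these data known.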

Additional observations from a re-analysis of the deposited data

Results flagged for a closer look

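Among 114 groups of 5 libraries, 5 held a library whose gap to its nearest neighbour was over 0.71 of the group's range, and chance alone gives about 1 in 20. Ifnar1 in control 5 was low at 104.7 CPM, with the other controls from 119.6 to 124 CPM. Irf7 in control 1 was high at 41.2 CPM, with the others from 30.1 to 33.1 CPM. Mx2 in control 1 was high at 9.32 CPM, with the others from 5.55 to 6.49 CPM. Usp18 in control 4 was low at 12.3 CPM, with the others from 15.2 to 16.4 CPM. Oas1c in the library labelled EC-TRAIL KO 2 was high at 4.91 CPM, with the others of its group from 3.44 to 3.86 CPM.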

How the results depend on the processing

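No member passed in any of the 19 alternatives, and their median log2 fold change ran from 0.03 to 0.12 when each library was left out. The sign of 16 members turned in at least 1 alternative, in 51 of 777 values. Genes passing over all genes numbered 79, against 2 with library size only, limma-voom or its quality weights, 143 with no filter, 212 with DESeq2, 149 with the replicate block, 1 without both libraries numbered 4, and 2 to 155 when leaving out each library; the cause was not tested. Of the pathway list 1 gene, Slfn9, passed with no filter, DESeq2 or the replicate block, and 0 to 1 when leaving out libraries. Tnfsf10 ran from -1.21 to -0.72 and passed only without the library labelled EC-TRAIL KO 2. Its adjusted p was 0.0853 with DESeq2 and 0.0513 with the replicate block in edgeR. Leaving out libraries gave log2 fold changes with both signs for Ifnar2 (-0.014 to 0.087), Ifngr2 (-0.021 to 0.12), Irf9 (-0.050 to 0.14), Irf2 (-0.12 to 0.061), Irf3 (-0.037 to 0.11), Irf7 (-0.053 to 0.12), Ifih1 (-0.070 to 0.025), Ifit1 (-0.13 to 0.076), Ifit3 (-0.030 to 0.13), Oasl1 (-0.21 to 0.039), Mx1 (-0.16 to 0.24), Mx2 (-0.15 to 0.12), Trim25 (-0.050 to 0.028), Parp9 (-0.067 to 0.0051), Parp14 (-0.0037 to 0.14), Dtx3l (-0.14 to 0.058), Irf4 (-0.14 to 0.17) and Oas1b (-0.031 to 0.23). Limma-voom turned Ifit1 to 0.0056 and Mx1 to 0.027, and its quality weights turned Ifit1 to 0.046, Mx2 to 0.0076, Trim25 to 0.0031 and Irf4 to -0.16. Without both libraries numbered 4, Irf4 was at -0.14. The replicate block turned Mx1 to 0.023 and changed no other call beside those given. Same-numbered libraries had deviation correlations of 0.227, 0.0679, 0.210, 0.433 and 0.114 for numbers 1 to 5, and 4 of 5 controls correlated best with their own number, a hint from the data of shared structure by number. Because the labels state no pairing, the fit without the block was kept. With the block in edgeR the same 6 members had an unadjusted p under 0.05, against 1581 of 17997 genes. Depth limits Oas3, Irf5 and Mx1, whose mean CPM was under 2, and Oas3 and Mx1 were not tested at a mean CPM of at least 1.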

Other observations

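Markers of plasmacytoid dendritic cells, lymphocytes and neutrophils were scarce in these libraries. Siglech, a defining gene of plasmacytoid dendritic cells, had at most 3 counts in any library and 0 in 2 of them, and summed plasmacytoid dendritic cell markers (Ccr9 highest) ran from 0.363 to 1.63 CPM in controls and from 0.601 to 1.10 CPM in EC-TRAIL KO libraries. Summed T, NK and B cell markers (Cd79a and Cd2 highest) ran from 3.33 to 6.89 and from 3.60 to 6.80 CPM, and neutrophil markers (Cxcr2 and S100a9 highest) from 0.641 to 2.02 and from 0.697 to 1.82 CPM. Of the macrophage and monocyte markers, Csf1r averaged 43.4 and Cd68 35.5 CPM, whereas the alveolar macrophage receptor Marco was at 0 in 5 libraries. The 21 interferon genes together ran from 0.221 to 0.499 CPM in controls and from 0.0995 to 0.664 CPM in EC-TRAIL KO libraries, and only Ifnab and Ifnz reached 10 counts in any library.

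Tdrd7, a Tudor-domain protein known as an interferon-inducible antiviral gene, was the other pathway gene with all 5 EC-TRAIL KO libraries above all 5 controls, and it was named after its values were seen. Controls had 66.3, 58.6, 65.3, 66.1 and 60.3 CPM and EC-TRAIL KO libraries had 66.3, 68.9, 70.6, 66.4 and 68.6 CPM. The highest control and the lowest EC-TRAIL KO library both rounded to 66.3 CPM, and the log2 fold change was 0.11 (edgeR adjusted p = 0.997).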
